A study of Mus musculus with 2 samples.

Results

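Vascular endothelial cells line the blood vessels of the dorsal root ganglion, the sensory ganglion beside the spinal cord. Here they are the barcodes with at least 500 unique molecular identifiers (UMIs, counted transcripts) in which Cldn5, Flt1, Pecam1, Egfl7, Ly6a and Slco1a4 together gave at least 5 UMIs and at least 50 per 10,000 UMIs. The rule leaves out barcodes with 50 or more Igkc UMIs, an immunoglobulin transcript, and this removed 0 barcodes. It found 610 of 27777 barcodes, 319 of 15710 in the control library and 291 of 12067 in the other. The members were chosen by measured values, so the levels of the 6 rule genes are a description and support nothing.

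Each group was 1 pooled library of fixed cervical ganglia, taken from both sides of the spine. All mice received tamoxifen, which activates the recombinase, and imiquimod for 3 days, an agent that inflames the skin. Mice of the control group were Foxp3 CreER; Penk fl/WT. Those of the second group, called the Penk fl/fl library, were Foxp3 CreER; Penk fl/fl. Both groups thus carry the inducible Cre under Foxp3, the gene that marks regulatory T cells, and differ in having 1 or 2 floxed copies of Penk, the enkephalin precursor gene. The number of mice in a pool was not stated in the sources used. A single library per group allows neither a replicate check nor a test of genotype, and every interval below is an exact 95% interval that covers counting error only.

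In the ganglion, capillaries and larger vessels differ in how tightly they seal. A tight endothelium joins its cells with claudin-5 (Cldn5), occludin (Ocln) and zonula occludens proteins, carries glucose in through Slc2a1 and large neutral amino acids through Slc7a5, and pumps foreign compounds back into the blood through Abcb1a and Abcg2. Canonical Wnt signalling, read through the receptor Fzd4 and beta-catenin, is known for keeping such a barrier in brain vessels. Leaky fenestrated endothelium instead carries the diaphragm protein Plvap. Inflamed endothelium raises the adhesion molecules Sele, Selp, Icam1 and Vcam1, which catch leukocytes, and responds to interferons with a set of antiviral genes.

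The members held 1344190 UMIs in the control library and 1203773 in the Penk fl/fl library, of 259136217 and 156441497 UMIs in all. A member had a median of 2272 UMIs (500 to 29945) and 2300 UMIs (502 to 28128) and a median of 1649 and 1678 genes. The deepest 10% of members held 38.6% and 39.1% of all member UMIs, so sums over members weigh deep barcodes most. All 6 or 5 of the 6 rule genes were found in 253 (79.3%) and 228 (78.4%) members, and only 1 or 2 of them in 5 and 6. Cldn5 was detected in 92.2% and 92.4%, Ly6a, which fibroblasts also express, in 91.8% and 91.8%, and 62 and 54 members would have been lost without Ly6a.

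The limit of 50 per 10,000 runs through a continuous range. Between 50 and 60 per 10,000 lay 37 control and 45 Penk fl/fl members, and between 40 and 50 lay 53 and 40 barcodes that were left out. Abcb1a, which the rule did not use, was at 842 and 969 CPM (counts per 1,000,000 UMIs of the group) just inside and at 797 and 831 CPM just outside. Barcodes on the outer side of the limit thus still carried endothelial transcripts.

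**Figure D1:**
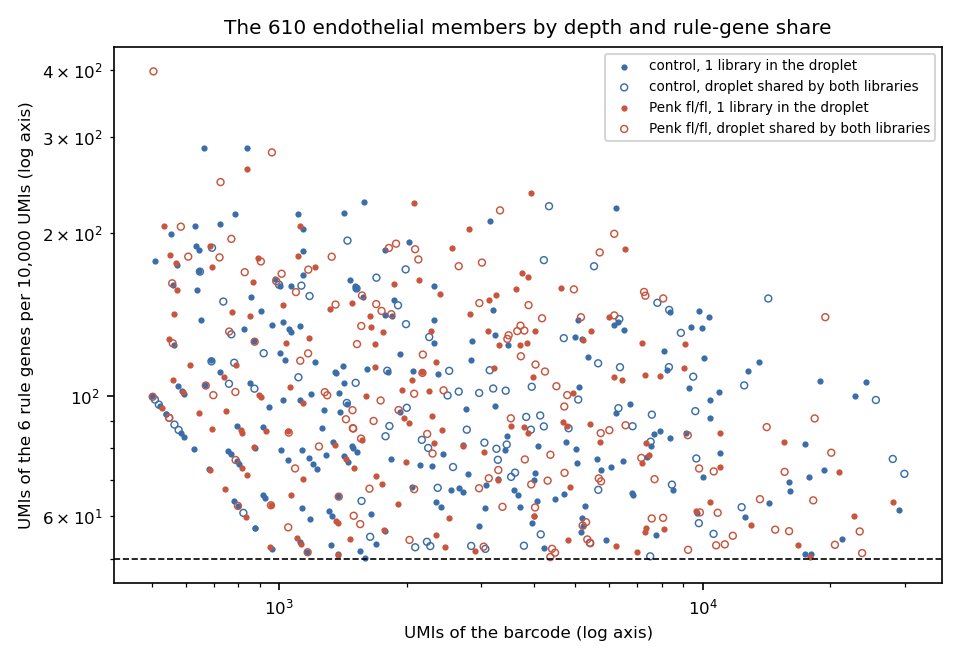
Each point is 1 of the 610 members, with its UMIs on the x axis and the UMIs of the 6 rule genes per 10,000 on the y axis (both log axes). Blue is the control library and red the Penk fl/fl library, open circles are members whose droplet barcode occurs in both libraries, and the dashed line is the limit of 50. Members of both libraries spread over depths from about 500 to 29945 UMIs and lie among each other.

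Droplet barcodes were shared between the libraries, and members were among them. In all, 4723 droplet barcodes occurred in both libraries, which is 30.1% of control and 39.1% of Penk fl/fl barcodes. Of the members, 95 (29.8%, interval 24.8 to 35.1) and 141 (48.5%, 42.6 to 54.4) lay in such droplets, and 6 droplets held a member in each library. Whether shared barcodes mean shared droplets was not tested.

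The share of endothelial members was 2.03% (1.82 to 2.26) in the control and 2.41% (2.15 to 2.70) in the Penk fl/fl library, a ratio of 1.19 (1.01 to 1.40). Counting members that met no other class rule, described below, the ratio was 1.11 (0.917 to 1.33), and with the rule limits doubled 1.29 (0.998 to 1.67), so both intervals included 1. With every barcode thinned to 500 UMIs and at least 5 rule-gene UMIs required, the ratio was 1.30 (1.05 to 1.61). Without Ly6a in the rule it was 1.20 (1.002 to 1.44), so these intervals lay above 1. In droplets of 1 library only, the shares were 2.04% (1.78 to 2.32) and 2.04% (1.73 to 2.39), a ratio of 1.002 (0.809 to 1.24). In shared droplets they were 2.01% (1.63 to 2.45) and 2.99% (2.52 to 3.51). The shares thus differed in shared droplets and were level in the others, where the interval of the ratio also included 1.19. Whether the ratio differs between shared and other droplets was not tested.

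Members also carried transcripts of their neighbours in the tissue. In the control library 67 members (21.0%) and in the Penk fl/fl library 77 (26.5%) met the marker rule of another class as well. The most frequent overlap was with mural cells, the pericytes and smooth muscle cells that wrap vessels (30 and 44 members), followed by fibroblasts (13 and 16), Schwann cells (16 and 11), neurons (5 and 5), macrophages (5 and 2) and satellite glia (1 and 2). Summed over members, the pericyte gene Rgs5 was at 1538 and 1674 CPM, below the 2982 and 3834 CPM of mural barcodes but above every other class, where it reached at most 105 CPM. The neurofilament gene Nefl was at 1595 and 1721 CPM against 10810 and 10844 in neuron barcodes, and the fibroblast gene Dcn at 1387 and 1533 CPM. What part these transcripts play in the results below was not tested, and results are also given for members that met no other class rule where that moves them.

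The endothelial label held on genes that the rule did not use. Cdh5, the adherens junction cadherin of endothelium, was at 505 CPM (468 to 545) and 494 CPM (455 to 536) in members and at 2 and 3 CPM in neuron barcodes. Abcb1a was at 1547 CPM (1482 to 1615) and 1476 CPM (1408 to 1546), against 6 and 7 CPM in neurons, 62 and 36 CPM in Schwann barcodes and 109 and 226 CPM in mural barcodes. The endothelial lineage factor Fli1 was at 426 and 415 CPM, and the related factor Erg reached 233 and 163 CPM. Of 28 further endothelial genes in the files, 26 had at least 100 UMIs over both libraries' members, the minimum set for comparing the libraries.

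A rule picked the 15 genes with the largest fold over the pooled barcodes of the 6 other classes, taking the smaller of the 2 libraries and genes of at least 100 CPM. Neuron barcodes give most UMIs of that pool, so a gene of any non-neuronal vessel cell can enter. They were Degs2, Srarp, Ushbp1, Tek, Acer2, Adgrl4, Clec14a, Sox17, Robo4, Gimap1, Prom1, Gata2, Ptprb, Mecom and Myh11. Most are known endothelial genes: Tek encodes the angiopoietin receptor Tie2, Ptprb the phosphatase that restrains it, Robo4 and Clec14a vessel surface receptors, Sox17 and Gata2 transcription factors of the vessel wall. Myh11 is a smooth muscle myosin, and mural barcodes carried more of it than the members (641 and 645 CPM against 298 and 413).

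Degs2, a sphingolipid desaturase gene (GRCm39 chromosome 12, 108644970 to 108668586, minus strand), led this order with a fold of at least 160 in each library. It was at 163 CPM (142 to 186) and 149 CPM (128 to 172) in members and had no UMI in mural or fibroblast barcodes. Adgrl4 (chromosome 3, 151143374 to 151250723, plus strand), an adhesion receptor gene of endothelium, was at 1103 CPM (1048 to 1161) and 970 CPM (915 to 1028), with 102 and 113 CPM in mural barcodes and 4 and 4 in neurons. Sox17 (chromosome 1, 4561151 to 4567784, minus strand) was at 747 CPM (701 to 795) and 670 CPM (624 to 717), with 232 and 147 CPM in mural barcodes. Mural barcodes stood nearest to the members on Adgrl4 and Sox17, but not on Degs2, which was at 6.32 and 3.77 CPM in Schwann barcodes.

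**Figure D2:**
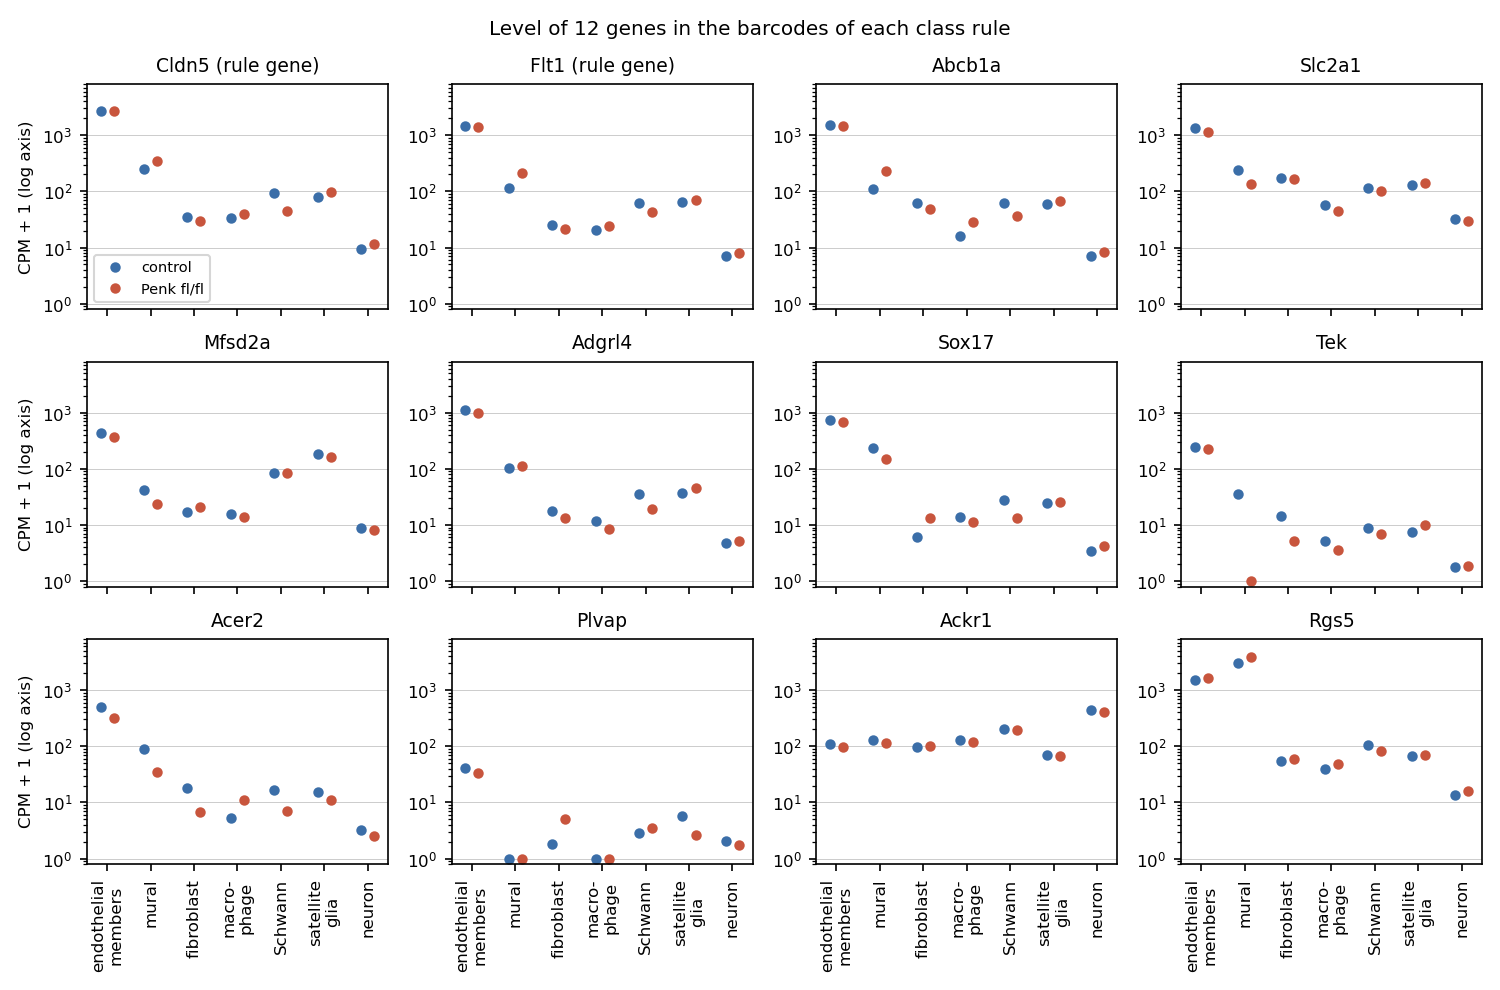
Points give the CPM plus 1 (log axis) of 12 genes in the barcodes of each class rule, blue for control and red for Penk fl/fl. Abcb1a, Adgrl4, Sox17 and Tek are highest in the endothelial members in both libraries, Ackr1 is highest in neurons and Rgs5 in mural barcodes.

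Barrier transporters were present throughout the members. Slc2a1 or Abcb1a was detected in 292 control and 261 Penk fl/fl members. Slc2a1, the glucose carrier (chromosome 4, 118965908 to 118996365, plus strand), was at 1346 CPM (1285 to 1410) and 1131 CPM (1071 to 1192), Slc7a5 at 1379 and 1416 CPM, Abcg2 at 1129 and 1125 CPM and Mfsd2a, the lipid carrier of barrier capillaries, at 431 and 368 CPM. Slc2a1 reached at most 239 CPM in any other class and Mfsd2a at most 182 CPM, in satellite glia. Because Slco1a4, itself a barrier transporter, is a rule gene, endothelium without it is less likely to be a member.

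Fenestrated and lymphatic endothelium were barely represented. Plvap had 53 UMIs in 32 control members and 39 UMIs in 32 Penk fl/fl members, in 10.0% and 11% of members, while 3.5% and 1.6% of the deeper neuron barcodes (median 9713 and 5811.5 UMIs) had one. Of these members, 31 and 30 also had Slc2a1 or Abcb1a. Most members had one of these genes (292 of 319 and 261 of 291), so this cannot tell whether Plvap marked a group of its own. The lymphatic factor Prox1 had 1 and 0 UMIs, Lyve1 1 and 4, and Mmrn1 none in either library. Flt4, which blood endothelium also carries, had 98 and 99 UMIs.

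Arterial, capillary and venous genes were all present. Of the arterial genes, the gap junction gene Gja4 was at 146 and 132 CPM, the semaphorin Sema3g at 277 and 250 CPM and the Notch ligand Dll4 at 138 and 140 CPM. Of the venous genes, the factor Nr2f2 was at 195 and 190 CPM and the ephrin receptor Ephb4 at 176 and 160 CPM. Summed, arterial genes were at 1309 and 1243 CPM, below mural barcodes (1754 and 1640). Venous genes were at 779 and 763 CPM, also below mural barcodes (1269 and 1380), so neither sum shows endothelium of that type. Capillary genes were at 4841 and 4878 CPM, above every other class (at most 2630 and 2642, in neurons). Most of this came from 1 gene, Spock2, so the sum alone does not show capillary endothelium either. Spock2 had 1153 UMIs in sub-cluster 1, described below, and 8194 in the other members. All capillary genes together had 6507 and 5872 UMIs in the control and Penk fl/fl members. Ackr1, the chemokine-binding receptor that marks venules in many tissues, was at 110 and 98 CPM in members but at 449 and 413 CPM in neurons, so its presence in 27.0% and 24.7% of members lies below the 81.7% and 75.7% of neuron barcodes and says nothing about venules. Genes of dividing cells were near 0, with Mki67 at 7 and 7 UMIs and Top2a at 7 and 2.

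Wnt pathway genes of the barrier were measured in all but 3 of 22 at 100 UMIs or more. The receptor Fzd4 was at 295 and 235 CPM, and the pathway's targets Axin2 and Lef1 at 302 and 277 CPM and at 209 and 237 CPM, against 25 and 16 CPM and 10 and 11 CPM in Schwann barcodes. Foxf2, a factor of barrier endothelium, was at 121 and 109 CPM, and Foxq1 reached 56.5 and 44.0 CPM. Summed, the 22 genes were at 3877 and 3797 CPM in members. Mural barcodes stood nearest, at 2224.5 and 2171.8 CPM, above Schwann barcodes at 957 and 901 CPM. None of the 19 passed the size step of 1.5 between the libraries in either direction.

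Unsupervised clustering of the members at a resolution of 0.8 gave 8 sub-clusters, each with members of both libraries. None could be named as a vessel type, since the leading genes of each held fewer than 3 markers of any vessel type. In 7 of 8 the leading genes included genes of neighbouring cell types or of blood. The sub-clusters are given by number, and their leading genes are a description.

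Sub-cluster 1, the largest with 84 control and 85 Penk fl/fl members, was led by the hemoglobin genes Hbb-bs and Hba-a2 and by Gngt2, Car4 and Lrg1. All 114 of its Hbb-bs UMIs and 45 of its 46 Hba-a2 UMIs lay in control members, so these genes do not describe its Penk fl/fl members. Its median depth was 1134 UMIs. Its summed barrier transporter level was 15103 CPM against 9244 in the other members, and its summed capillary level, mostly Spock2, 6660 CPM against 4674. Endothelial genes outside the rule (18765 against 12384) and junction genes (10758 against 7443) were higher too, and arterial genes were not (1266 against 1279). Schwann markers (2862 against 7778) and fibroblast markers (864 against 3302) were lower. The barrier and capillary lists were thus not the only endothelial lists that were high in it. Sub-cluster 4 (36 and 27 members) was led by Spry1, Ahr and Dll4. Sub-cluster 6 (21 and 23 members) was led by the smooth muscle genes Acta2, Tagln and Myh11, and 8 of 15 arterial genes were at least 2-fold higher in it, with a summed arterial level of 2968 CPM against 1126 in the rest. Arterial and smooth muscle transcripts were thus high in the same sub-cluster, and whether single barcodes held both was not tested.

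The remaining sub-clusters carried neighbouring cell types. Sub-cluster 2 (59 and 53 members) was led by Tac1, Fbxo2 and Kif5b and sub-cluster 3 (51 and 46 members) by genes that included Pmp22 and the sodium channel gene Scn10a. Sub-cluster 3 had a median depth of 9233 UMIs and held 41.7% of all member UMIs. Sub-cluster 5 (25 and 23 members) was led by Col1a1, Col3a1 and Dcn, and sub-cluster 8 (22 and 12 members) by Drp2, Mbp and Fabp7. Sub-cluster 7 (21 and 22 members) was led by Ighm, Adgre1 and C1qa, but 208 of its 213 Ighm UMIs lay in Penk fl/fl members.

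**Figure D3:**
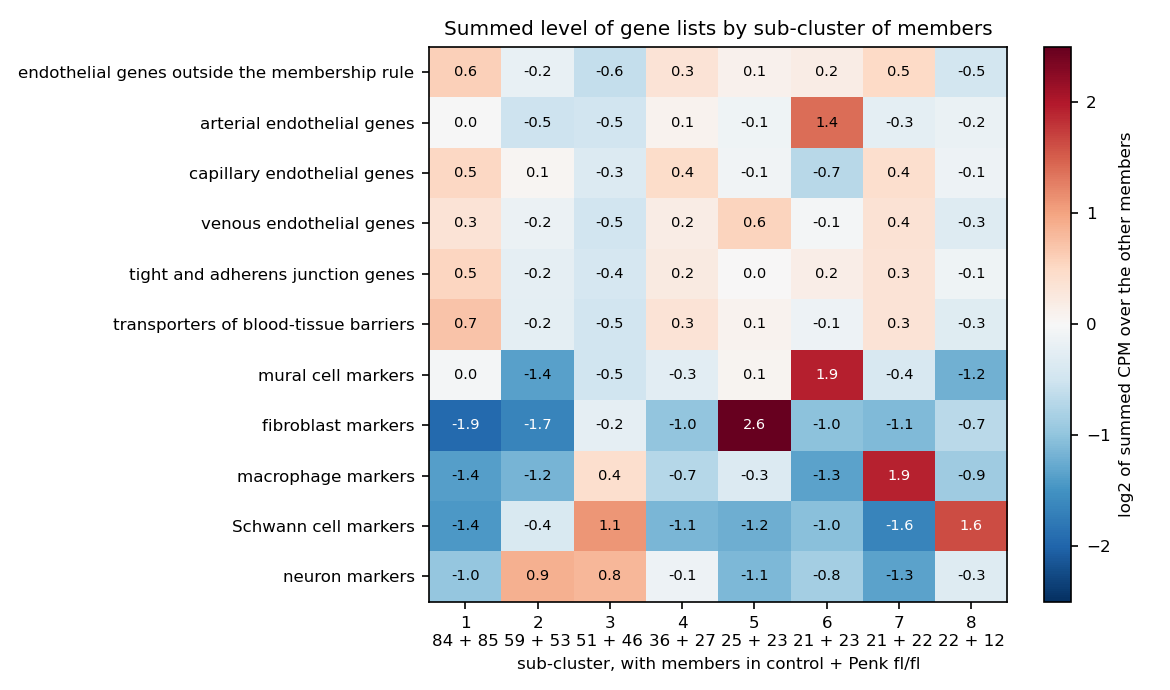
Colour and number give the log2 of a list's summed CPM in a sub-cluster over that in all other members, for 11 gene lists (rows) and 8 sub-clusters (columns, with members in control and Penk fl/fl). Sub-cluster 6 is high for arterial (1.4) and mural (1.95) lists together, and sub-clusters 5, 7 and 8 are high for fibroblast (2.59), macrophage (1.92) and Schwann (1.62) markers.

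The comparison of the genotypes asks whether endothelial transcripts differ between the Penk fl/fl and the control library. Most did not differ by much: of 6350 genes with at least 100 UMIs over both libraries' members, 53 were at least 1.5-fold higher in the Penk fl/fl library (0.835%) and 64 at least 1.5-fold lower (1.01%). The median log2 ratio over all 6350 genes was -0.0037, with 49.2% of genes above a ratio of 1 and 50.8% below. These shares are the background for each count below.

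Penk itself had 1 UMI in the control members and 0 in the Penk fl/fl members, so the deletion cannot be checked in endothelium. Foxp3 had 0 UMIs in both. Of the opioid receptors, Oprm1 had 81 and 91 UMIs, or 60.3 CPM (47.9 to 74.9) and 75.6 CPM (60.9 to 92.8), close to the 66 and 82 CPM of neurons, Oprd1 11 and 6 UMIs, Oprl1 4 and 10 and Oprk1 0 and 0. Oprm1 was at 45 CPM or more in each of the other classes too, so its level does not set the members apart.

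**Figure D4:**
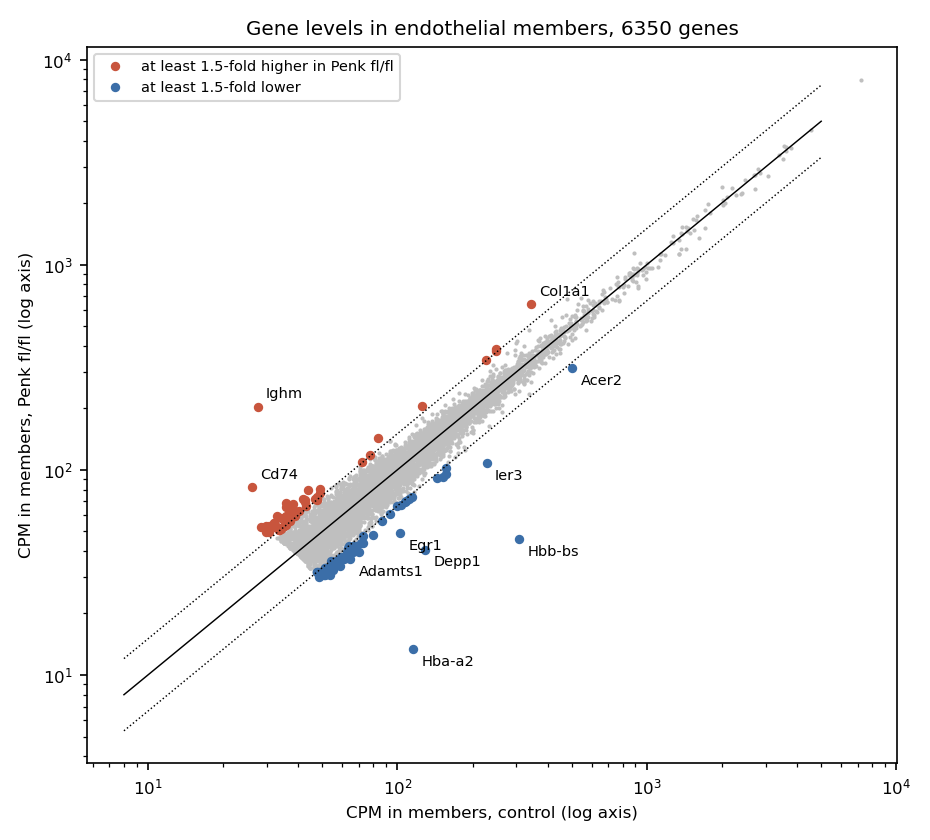
Each point is 1 of 6350 genes with its CPM in control members (x) and Penk fl/fl members (y), both log axes. The solid line is equality and the dotted lines a ratio of 1.5 either way, past which 53 genes lie above (red) and 64 below (blue), most of them under 100 CPM.

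Among the 12 genes with the lowest ratios, those carried by many members were Depp1, Ier3 and Egr1. Depp1, a stress-induced gene under FoxO control, had 174 UMIs in 69 control members and 49 UMIs in 29 Penk fl/fl members, 129 CPM (111 to 150) and 40.7 CPM (30.1 to 53.8), a ratio of 0.314 (0.224 to 0.434). Its ratio was 0.320 (0.120 to 0.726) in Schwann barcodes on 37 and 7 UMIs and 0.906 (0.755 to 1.08) in neurons, and the other 4 classes held at most 17 UMIs each. Over the alternatives tried it lay between 0.183, with every member weighted equally, and 0.382.

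Ier3, an immediate early gene, was at 228 CPM (203 to 255) and 108 CPM (90.2 to 128), a ratio of 0.474 (0.383 to 0.584). Its ratio was also below 1 in fibroblasts (0.484, 0.304 to 0.756) and Schwann barcodes (0.647, 0.491 to 0.846), but not in neurons (1.03, 0.943 to 1.13). Egr1, an immediate early transcription factor gene, was at 103 and 49.0 CPM, a ratio of 0.477 (0.346 to 0.652), and at 0.149 with members thinned to 500 UMIs (22 and 3 UMIs). Its ratio was 0.658 in fibroblasts, 0.752 in Schwann barcodes, 0.764 in satellite glia and 0.656 in neurons. Lower Egr1 in the Penk fl/fl library was thus found in these 5 classes, while mural and macrophage barcodes held at most 43 UMIs each, and whether the endothelial ratio differs from the others was not tested.

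Acer2, the alkaline ceramidase gene (chromosome 4, 86792537 to 86853061, plus strand), was the identity gene past the size step. It had 675 UMIs in 198 control members and 376 UMIs in 153 Penk fl/fl members, 502 CPM (465 to 542) and 312 CPM (282 to 346), a ratio of 0.622 (0.547 to 0.707). Leaving out any 1 sub-cluster gave 0.592 to 0.667. The ratio was below 1 also in fibroblast (0.344, 0.123 to 0.848), Schwann (0.382, 0.219 to 0.634) and neuron barcodes (0.643, 0.471 to 0.866), at far lower levels. The other 14 identity genes had ratios from 0.806 (Clec14a) to 1.39 (Myh11).

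The other low ratios were of thinner genes. Adamts1, a secreted protease gene, had 87 and 44 UMIs (ratio 0.565, 0.384 to 0.821), and Stab1, a scavenger receptor gene, 94 and 48 (0.570, 0.394 to 0.816). Hsd3b7 (79 and 41 UMIs), Ubn1 (86 and 45), Atxn3 (74 and 39), Fam210b (69 and 37) and Nipa1 (82 and 44) followed with ratios of 0.580 to 0.599. Their counts are small enough that every interval reached above 0.8.

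Hemoglobin RNA differed by more than any endothelial gene but came from few barcodes. Hbb-bs had 412 UMIs in 18 control members and 55 UMIs in 3 Penk fl/fl members, and Hba-a2 155 UMIs in 15 and 16 UMIs in 4. These are red blood cell genes, and 2 members alone held 223 of the 412 control UMIs of Hbb-bs. Hbb-bs was also lower in fibroblast, macrophage, Schwann and neuron barcodes of the Penk fl/fl library, with ratios of 0.0579 to 0.278, and higher in satellite glia (7.54).

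Among the 12 highest ratios, the first was immune and rested on single barcodes. Ighm, the immunoglobulin M heavy chain gene of B cells, had 37 UMIs in 29 control members and 244 UMIs in 36 Penk fl/fl members, a ratio of 7.36 (5.20 to 10.7), but 201 of the 244 UMIs lay in 2 members, and without these 2 the ratio was 1.31 (0.823 to 2.09). Cd74, the invariant chain of antigen presentation, had 35 UMIs in 26 members and 99 UMIs in 41 members (3.16, 2.13 to 4.79), with 31 UMIs in 1 Penk fl/fl member. Of the lymphocyte markers, Cd79a had 0 and 11 UMIs and Ms4a1 0 and 4, while Cd3d, Cd8a and Nkg7 had none.

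Col1a1, a fibroblast collagen gene, was at 342 CPM (312 to 375) and 640 CPM (595 to 686), a ratio of 1.87 (1.66 to 2.10). In members that met no other class rule the ratio was 1.09 (0.915 to 1.30), and without sub-cluster 5, which Col1a1 leads, it was 1.23 (1.05 to 1.43). In fibroblast barcodes themselves it was 1.47 (1.42 to 1.52). Of the 7 fibroblast markers compared, Col1a1, Col3a1, Lum and Col1a2, had ratios of 1.42 to 1.87, whereas the list median went from 0.50 on the log2 scale to -0.0095 in members that met no other class rule and -0.030 in droplets of 1 library. Tagln, a smooth muscle gene, likewise had a ratio of 1.52 (1.30 to 1.76), but 0.798 in members that met no other class rule.

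The remaining high ratios were mostly of genes with under 100 UMIs in each library. Pde3a, a cyclic nucleotide phosphodiesterase gene, had 59 and 96 UMIs (1.82, 1.30 to 2.56), 1.87 (1.03 to 3.44) in mural barcodes and 1.17 (0.645 to 2.13) in members that met no other class rule. Tcf3, a transcription factor gene, had 48 and 83 UMIs (1.93, 1.34 to 2.82). Its ratio was also above 1 in Schwann (1.54, 1.15 to 2.06), satellite glia (1.91, 1.47 to 2.47) and neuron barcodes (1.40, 1.22 to 1.615). In fibroblasts it was 1.22 (0.729 to 2.07), and mural (3 and 8) and macrophage barcodes (4 and 10) held few UMIs. Fabp7, a glial gene, had 334 and 458 UMIs (1.53, 1.33 to 1.77). Nsmce2 (1.85), Ptgds (1.84), Pycard (1.83), Col28a1 (1.80), As3mt (1.79), Glis2 (1.76) and Ndnf (1.71) completed the 12 highest. Ptgds was also higher in Schwann (1.32), satellite glia (1.29) and neuron barcodes (1.89) of the Penk fl/fl library. Its intervals included 1 in fibroblasts (1.16), macrophages (0.881) and mural barcodes (5 and 1 UMIs). Whether the endothelial ratios differ from those of other classes was not tested.

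Junction genes were level between the libraries. Of 17 tight and adherens junction genes compared, 0 were higher and 1 lower by the size step, and the median log2 ratio was -0.02. The scaffold gene Tjp1 was at 688 and 680 CPM, and Cdh5 had a ratio of 0.979 (0.875 to 1.09). Cldn5, at 2698 CPM (2611 to 2788) and 2740 CPM (2648 to 2836), is a rule gene, so its level supports nothing here. The 1 past the step was Ocln, with 85 and 50 UMIs and a ratio of 0.657 (0.454 to 0.942), which turned to 1.14 when every member counted equally.

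Barrier transporters leaned slightly to the control library. Of 15 compared, 13 had a ratio below 1 and 2 above, 0 passed the size step, and the median log2 ratio was -0.11. Slc2a1 had a ratio of 0.840 (0.782 to 0.901), Mfsd2a 0.854 (0.753 to 0.969) and the insulin receptor Insr 0.809 (0.683 to 0.958), whereas Abcg2 had 0.997 (0.926 to 1.07) and Slc7a5 1.03 (0.960 to 1.10). Of 26 endothelial genes outside the rule, 22 also had a ratio below 1, with a median log2 ratio of -0.09. The pattern was thus not particular to transporters. With the rule limits doubled the transporter median turned to 0.07 and that of the 26 endothelial genes to 0.0064. The lean thus depended on which barcodes counted as members.

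Among genes of vessel type and growth, 2 passed the step. Gpihbp1, which anchors lipoprotein lipase in capillaries, had 194 and 110 UMIs and a ratio of 0.633 (0.496 to 0.804). In members that met no other class rule, and in those that met the rule without Ly6a, 0 capillary genes were lower by the step. Of the Gpihbp1 UMIs, 52 and 19 lay in sub-cluster 7, where macrophage markers were highest. Edn1, the endothelin-1 gene, had 65 and 36 UMIs and a ratio of 0.618 (0.400 to 0.943), but 1.01 in droplets of 1 library. With Flt1, a rule gene, at 0.955, Kdr at 0.938 and Tek at 0.919, none of the 15 VEGF and angiopoietin genes passed the step. None of the 13 Notch genes did either. Of 16 BMP and TGF-beta genes, the receptor gene Tgfbr1 did, with 73 and 43 UMIs and a ratio of 0.658 (0.440 to 0.972). Erg, at 0.699 (0.582 to 0.839), came close to it, and its partner in the ETS family Fli1 was at 0.976 (0.864 to 1.10).

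Several endothelial activation genes had few UMIs in both libraries. Sele had 0 and 1 UMIs, Selp 0 and 3, Il6 0 and 1 and Cxcl1 2 and 2, which at this depth sets no level. Icam1 had 47 and 20 UMIs, below the minimum for comparison, and Vcam1 91 and 64 UMIs, a ratio of 0.785 (0.561 to 1.09). Cxcl12, a chemokine of the vessel wall, was at 1440 CPM (1377 to 1506) and 1197 CPM (1136 to 1260), a ratio of 0.831 (0.776 to 0.890). Of 12 adhesion and activation genes compared, 0 passed the step in either direction and 8 had a ratio below 1.

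Interferon-stimulated genes were mostly higher in the Penk fl/fl members, by a small amount. Of 38 compared, 36 had a ratio above 1 and 2 below, against 49.2% of all genes above 1, and the median log2 ratio was 0.20 (-0.18 to 0.58 over the genes) against -0.0037 over all genes. Ly6e was at 2005 CPM (1930 to 2082) and 2379 CPM (2293 to 2468), Ifitm3, which blocks virus entry, at 886 and 1141 CPM, and Isg15, a ubiquitin-like protein gene, at 337 CPM (307 to 370) and 483 CPM (444 to 524), a ratio of 1.43 (1.26 to 1.62). Igtp, an interferon-induced GTPase gene, had the largest ratio of the list, 1.49 (1.18 to 1.90), and 0 of 38 reached the size step. With the rule limits doubled 5 of the 38 were higher by the step, with members weighted equally 3, and with thinning 5 were higher and 3 lower.

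The interferon median stayed between 0.17 and 0.32 over the choices of members, sub-clusters, weights, scale and count minimums that were tried. Macrophage markers moved with it: 8 of 8 compared had a ratio above 1, 2 of them at or past the step (Aif1 and Lyz2), and their summed level was 1037 and 1233 CPM. Without sub-cluster 7, where macrophage markers were highest, the interferon median was 0.21. By class it was 0.20 in macrophages (14 of 14 genes above 1) and 0.16 in fibroblasts (18 of 25), but -0.06 in Schwann barcodes and -0.20 in satellite glia. Whether the classes differ was not tested, and neither was the part of macrophage RNA.

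Immediate early genes pointed the other way. Of 16 compared, 12 had a ratio below 1, 0 were higher and 2 lower by the size step (Ier3 and Egr1), and the median log2 ratio was -0.26. Jun was at 199 and 161 CPM (0.808, 0.668 to 0.976) and the phosphatase gene Dusp1 at 110 and 77.3 CPM (0.702, 0.535 to 0.916). The shear-responsive factor Klf2, at 494 and 501 CPM, and Jund, at 0.955, were level. Over the alternatives tried the median lay between -0.38, with the rule limits doubled, and -0.10, with members weighted equally. By class it was -0.32 in Schwann barcodes (11 of 14 below 1), -0.17 in macrophages (4 of 5) and -0.16 in neurons (12 of 16), but -0.02 in fibroblasts and 0.06 in satellite glia.

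Class I antigen presentation and hormone-responsive genes differed little. H2-K1 had a ratio of 1.02 (0.936 to 1.11), and of 11 MHC genes compared only Cd74 passed the step. The class II genes H2-Eb1 (11 and 50 UMIs), H2-Ab1 (13 and 36) and H2-Aa (16 and 34) fell under the minimum for comparison, and 21 of the 50 H2-Eb1 UMIs lay in 1 member. Of 19 glucocorticoid and metallothionein genes, 0 passed the step and 13 had a ratio below 1, with a median log2 ratio of -0.06. Over the alternatives tried this median lay between -0.18 and -0.06. The hypoxia factor gene Epas1, at 2719 and 2338 CPM, had a ratio of 0.860 (0.818 to 0.903).

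**Figure D5:**
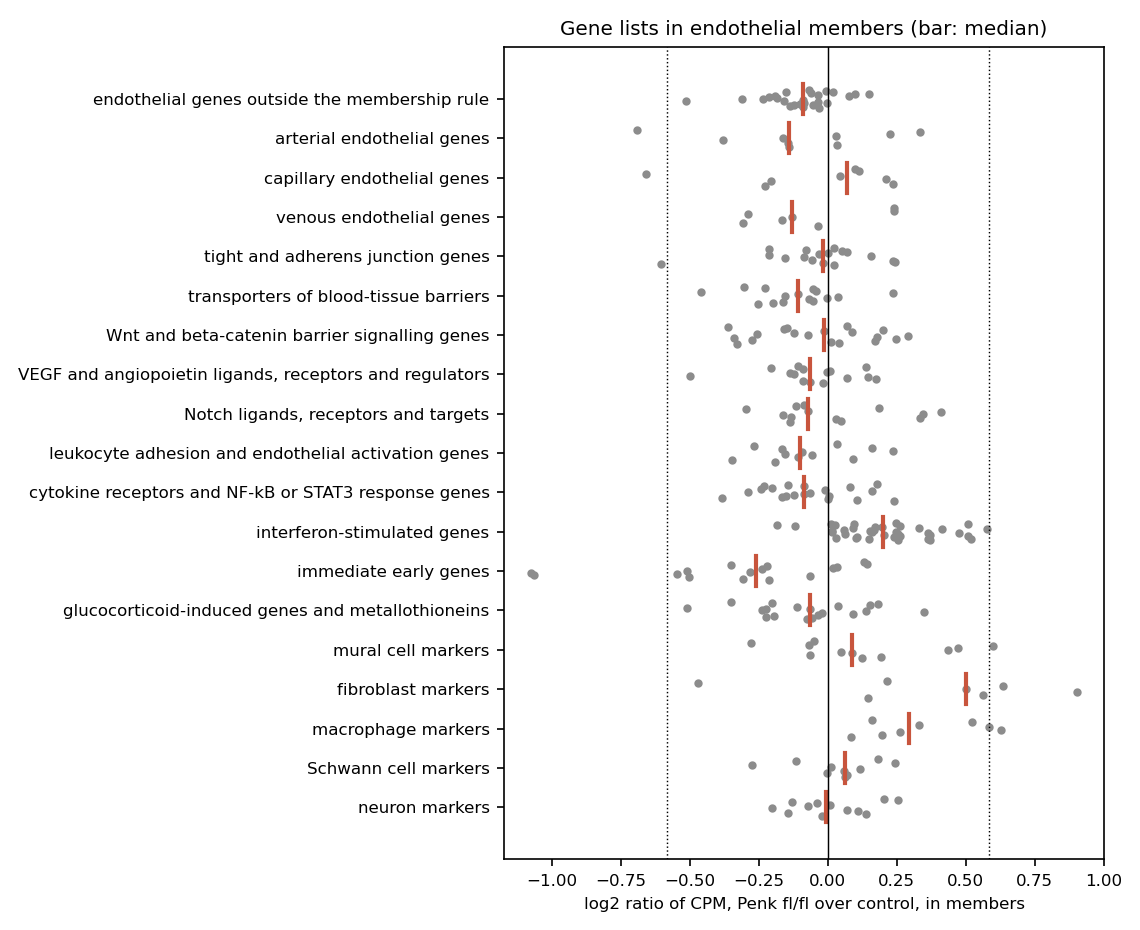
Each grey point is a gene's log2 ratio of CPM, Penk fl/fl over control, in the members, by gene list, and each red bar is the list's median. Dotted lines mark a ratio of 1.5 either way. Interferon-stimulated genes centre at 0.20 and immediate early genes at -0.26, while junction genes centre at -0.02 and fibroblast markers at 0.50.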

How the data were processed

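The authors deposited unnormalised UMI counts for each gene in each called barcode. Per the labels, Cell Ranger 7.0 was run on GRCm39, while the matrices state version 8.0.1, per the file headers. Fixed tissue was read with 10x Flex probe pairs. The series text speaks of nuclei and the labels of cells.

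The members and gene lists were chosen with earlier results of these data known. Counts were summed over members per library and divided by the class total (CPM). CPM have exact Poisson intervals, ratios exact conditional binomial intervals and shares Clopper-Pearson intervals, at 95%, for counting error only. These sums were compared for genes with at least 100 UMIs over both libraries, with a size step of 1.5. Other classes are barcodes that met 1 marker rule only. No doublet caller was run.

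Some items are not reported here. Named genes were the 12 highest and 12 lowest ratios that kept their direction with members weighted equally and thinned to 500 UMIs, 15 genes by fold over other classes, the most counted members of each of 36 lists with those past the step, and Penk, Foxp3 and opioid receptors. Other genes named beside these, such as Icam1, Sele, Selp, Erg, H2-Eb1, Cd79a and the Wnt genes, were chosen after their values were seen. Sub-clusters came from scanpy 1.11.5 (2000 variable genes, 20 components, 15 neighbours, Leiden at 0.8). Positions are from GENCODE on GRCm39. The ratio code was tested on simulated data.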

Additional observations from a re-analysis of the deposited data

Results flagged for a closer look

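Ighm and Hbb-bs had ratios on opposite sides of 1 in the endothelial members and in 1 other class, with both intervals clear of 1. The difference between the classes was not tested. Ighm was at 7.36 in the members and at 0.846 (0.775 to 0.923) in neurons, on 1662 and 746 UMIs there. In the members 201 of the 244 Penk fl/fl UMIs lay in 2 barcodes, and without these 2 the ratio was 1.31 (0.823 to 2.09), an interval that includes 1. Hbb-bs was at 0.149 (0.110 to 0.198) in the members and at 7.54 (4.42 to 13.7) in satellite glia, on 16 and 100 UMIs.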

How the results depend on the processing

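With 1 library per group, nothing separates genotype from library, and deep barcodes and transcripts of neighbouring cells weigh on every sum. No paired analysis was possible because each group has 1 library. The share ratio was 1.002 (0.809 to 1.24) in droplets of 1 library. Genes higher and lower by the size step were 4 and 3 with members thinned to 500 UMIs, where 395 genes could be compared, 273 and 295 with members weighted equally, 368 and 387 from at least 30 UMIs (10180 genes), 5 and 7 from at least 300 UMIs (2119 genes) and 446 and 494 at a smaller step. At resolution 0.5 there were 4 sub-clusters. The cause of these moves was not tested, apart from the number of genes compared.

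The share ratio's interval included 1 without members of another class, with the rule limits doubled and in droplets of 1 library. It lay above 1 with every barcode thinned to 500 UMIs (1.30, 1.05 to 1.61) and without Ly6a (1.20, 1.002 to 1.44). Of 278 list medians under alternatives, 71 changed sign, 55 of them in lists whose reported median lay within 0.1 of 0. Among these, Schwann markers (0.061) turned to -0.60 with the rule limits doubled, where 5 of 10 were lower by the size step, mural markers (0.089) to -0.36 without members of another class, and VEGF (-0.066) and Notch genes (-0.074) to 0.23 and 0.21 with thinning. For lists this near 0 no direction is given. The other 16 changes were in lists farther from 0. With the rule limits doubled these were 0.056 (arterial), 0.109 (venous), 0.073 (barrier transporters), 0.0041 (adhesion), 0.059 (vasoactive) and -0.22 (satellite glia). In droplets of 1 library they were 0.021 (arterial), -0.00078 (heat shock), 0.012 (vasoactive) and -0.030 (fibroblast). With equal weights they were 0.077 (arterial) and 0.17 (vasoactive), with thinning 0.33 (vasoactive), from 30 UMIs 0.029 (arterial), without Ly6a, chosen after seeing the data, 0.055 (vasoactive), and without members of another class -0.0095 (fibroblast). Of 538 gene ratios 30 changed sides, and 7 of these were of genes past the size step: Edn1 1.01 in droplets of 1 library, Ocln 1.13 with doubled limits, 1.23 thinned and 1.14 with equal weights, Tagln 0.798 without members of another class and 0.838 thinned, and Col3a1 0.993 without members of another class. Leaving out each sub-cluster, or the 2 members with the most Ighm, was also chosen after seeing the data.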
